A study of Homo sapiens with 16 samples.

Results

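NF-kB is a family of transcription factors that act as pairs of subunits, and 10 genes of the pathway were examined here: the subunit genes RELA, RELB, NFKB1 and NFKB2, the inhibitor genes NFKBIA and NFKBIE, the ubiquitin regulators TNFAIP3, BIRC2 and BIRC3, and the adhesion molecule gene ICAM1. They were chosen by symbol, and all 10 were found among the 60669 genes of each deposited table. RNA came from HMC3, an immortalised human cell line described by its labels as microglial, either wild type or labelled as a knockout of METTL3, the catalytic subunit of the enzyme that writes N6-methyladenosine on RNA. Neither group carried another stated allele or treatment, and how the knockout was made, whether it is a single clone and whether replicates came from separate cultures are not given in the sources used here, so p-values measure only the spread between these samples. Smart-seq2, a protocol that selects polyadenylated RNA, gave 5 libraries per genotype, and depletion of ribosomal RNA followed by a directional kit gave 3 per genotype, each from 100 ng of RNA.

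In resting cells most NF-kB is held in the cytoplasm by inhibitors of the I-kappa-B family. Signals from receptors such as those for TNF and interleukin-1 activate a kinase complex that marks the inhibitor for destruction, and the freed subunits enter the nucleus and bind DNA. Their targets include the genes of their own inhibitors and of enzymes that edit ubiquitin chains on the receptor complex, so the pathway limits itself. A slower branch runs through the kinase MAP3K14 and the processing of the NFKB2 product, and is held down in resting cells by the ligases BIRC2 and BIRC3.

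Each rRNA-depleted library was described by TPM, a gene's share of the transcripts in a library after division by its length, and from TPM and gene length the reads behind each value were recovered. They totalled 266157 to 487272 in the wild-type libraries and 512627 to 1267171 in the libraries labelled knockout, so single genes rested on few reads, more of them in the knockout label. Knockout-labelled libraries 1 and 2 differed by no more than sampling noise (chi-square 1.02 per degree of freedom over 10120 genes, p = 0.0650) where every other pair of one label differed (1.16 to 1.53), and they were averaged and counted as 1 sample. METTL3 mRNA stood at 25.4 to 31.6 TPM in the wild type against 39.2 to 42.7 TPM in the libraries labelled knockout, with a log2 change of 0.09 (adjusted p 0.654) in the authors' deposited table, so mRNA levels do not check the label, and directions below are for the libraries carrying it. The poly(A) libraries were available as the authors' deposited table of 1 comparison, with no value per library. Its sign was read as knockout over wild type, because 91.5% of the 177 genes that passed in both library types at a log2 change of 1 or more in size then moved the same way.

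In the rRNA-depleted libraries RELA and BIRC2 rose and NFKBIE fell. Of the 10 genes, 8 passed the filter of at least 1 TPM in at least 3 libraries, and 3 of these 8 had a limma adjusted p under 0.05, against 35.3% of all genes tested (22.9% higher and 12.4% lower), a share near the background. The libraries labelled knockout lay above all wild-type libraries for 6 of the 8 and below them for 2, where 58.4% of all genes did not overlap (38.4% above and 19.9% below). Among the 6 are RELB and TNFAIP3, with totals of 1 and 2 wild-type reads. RELB reached the filter through its 3 knockout-labelled libraries, so its separation carries little weight. The median log2 change of all tested genes was 0.41 in these libraries, and 0.11 with median ratio scaling, so each change is also given relative to the median of all genes. In the authors' deposited table of the poly(A) libraries, 2 of the 8 genes with an adjusted p were called, BIRC2 and BIRC3, both higher, against 19.9% of all genes (9.55% higher and 10.3% lower).

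The promoters of 4 of the genes are shown because BIRC2 and BIRC3 are the genes called in the poly(A) libraries, NFKBIA is the feedback target that was not called, and NFKB2 had a change of opposite sign to that of NFKB1 in each library type. They were taken from RefSeq (GRCh38.p14), which listed promoters for 8 of the 10 genes, at the start nearest the GENCODE 29 gene end, and only bases before the first annotated exon are printed. Capitals mark the kappa-B pattern (GGG, any 5 bases, CC) on either strand, with overlapping matches run together. The windows are chr11:102346964-102347210 and chr11:102317234-102317449 on the plus strand, chr14:35404750-35404999 on the minus strand and chr10:102393860-102394109 on the plus strand.
BIRC2: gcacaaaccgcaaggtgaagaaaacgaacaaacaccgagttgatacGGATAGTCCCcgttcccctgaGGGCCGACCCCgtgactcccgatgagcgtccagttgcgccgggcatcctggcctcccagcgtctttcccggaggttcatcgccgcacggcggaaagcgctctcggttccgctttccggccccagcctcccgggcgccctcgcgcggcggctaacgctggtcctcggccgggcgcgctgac
BIRC3: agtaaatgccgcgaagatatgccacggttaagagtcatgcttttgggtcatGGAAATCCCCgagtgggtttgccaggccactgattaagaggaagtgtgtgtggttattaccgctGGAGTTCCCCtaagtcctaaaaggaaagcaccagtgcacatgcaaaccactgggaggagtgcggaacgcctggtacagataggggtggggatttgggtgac
NFKBIA: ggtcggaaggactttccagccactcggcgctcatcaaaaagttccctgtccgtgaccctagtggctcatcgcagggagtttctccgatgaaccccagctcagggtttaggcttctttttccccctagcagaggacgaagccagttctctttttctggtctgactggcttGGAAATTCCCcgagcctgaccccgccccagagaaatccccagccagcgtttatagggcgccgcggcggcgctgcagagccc
NFKB2: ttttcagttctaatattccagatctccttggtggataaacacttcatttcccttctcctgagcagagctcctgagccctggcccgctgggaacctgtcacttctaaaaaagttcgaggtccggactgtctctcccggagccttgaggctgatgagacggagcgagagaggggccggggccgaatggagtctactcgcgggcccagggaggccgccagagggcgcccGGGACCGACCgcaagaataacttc
This loose pattern occurred in 54.4% of the 35116 promoters over the same 250 bases, and in all 8 listed here. A stricter form (GGG, any 2 bases, TT, any base, CC), chosen after the matches were seen, occurred in 5.07% of promoters and in those of NFKBIA, BIRC3, NFKB1 and TNFAIP3. Annotated exon took up 250 bases of the ICAM1 window, 241 of NFKB1, 232 of RELA, 71 of TNFAIP3 and 34 or fewer of the rest. Matches in exon bases were counted too, among them those of the stricter form in TNFAIP3. The match in NFKBIA, GGAAATTCCC on the printed strand, starts 81 bases before the start, and that in BIRC3, GGAAATCCCC, starts 199 bases before it. BIRC2 and NFKB2 held the loose pattern and not the stricter one. The interferon response element (GAAA, any 2 bases, GAAA), present in 3.02% of promoters, was found in none of the 8 windows.

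**Figure D1:**
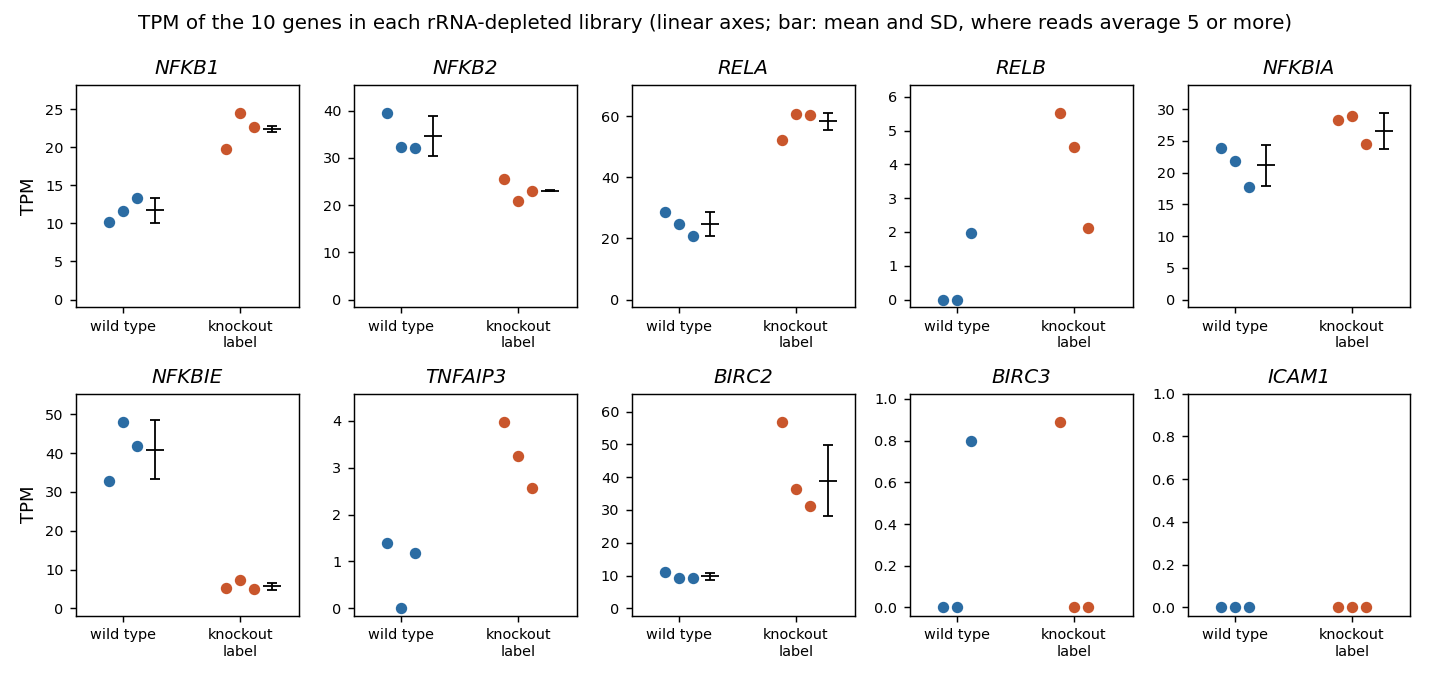
TPM (linear axes, a scale of its own in each panel) of the 10 genes in the 3 wild-type and 3 knockout-labelled rRNA-depleted libraries, 1 point per library; bars give the mean and SD over 3 wild-type samples and 2 knockout-labelled samples for genes averaging at least 5 reads. RELA and BIRC2 stand higher and NFKBIE lower in the knockout label, and ICAM1 is at 0 throughout.

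RELA (ENSG00000173039, chromosome 11, 65653596 to 65663094, minus strand, GENCODE 29 on GRCh38) encodes the subunit that carries a transactivation domain and, paired with the NFKB1 product, makes the common form of NF-kB. Wild-type libraries 1 to 3 held 28.5, 24.6 and 20.8 TPM of RELA, and those labelled knockout, in the same order, 52.1, 60.7 and 60.3 TPM, from 13 to 22 and from 51 to 121 reads. The groups did not overlap, and the highest wild-type library reached 28.5 TPM where the lowest of the others had 52.1 TPM. Mean RELA rose from 24.7 ± 3.85 (SD, n = 3) in the wild type to 58.3 ± 2.74 TPM (SD, n = 2), which limma put at 1.22 on the log2 scale (SE 0.20, adjusted p 0.00945), or 0.81 relative to all genes. The ratio of summed reads per depth was 2.35 (95% exact interval 1.75 to 3.22, for counting error only). The call was lost without knockout-labelled library 3, when 1 averaged sample stood for that label (log2 change 1.17, limma adjusted p 0.0891). RELA did not pass in the authors' deposited table and had the opposite sign there, at -0.25 on the log2 scale (SE 0.15, adjusted p 0.263). The 95% interval computed from that SE was -0.54 to 0.04, so the rise of the rRNA-depleted libraries was not seen in the poly(A) libraries. Whether the change of RELA differs between the library types was not tested.

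NFKB1 (ENSG00000109320, chromosome 4, 102501329 to 102617302, plus strand) encodes a precursor that is cut to a subunit without a transactivation domain, and whose uncut form also acts as an inhibitor. NFKB1 had 10.2, 11.6 and 13.4 TPM in the wild type against 19.8, 24.5 and 22.7 TPM in the knockout label, from 7 to 14 and 22 to 56 reads. All 3 knockout-labelled libraries lay above the wild type, but the log2 change of 0.89 (SE 0.27), or 0.48 relative to all genes, missed the threshold with a limma adjusted p of 0.0537. It passed under 4 alternatives, among them a fit restricted to genes averaging at least 5 reads (limma adjusted p 0.0380, in which 49.5% of all genes passed) and the 6 libraries as separate samples (0.0186). NFKB1 was just outside the threshold in the authors' deposited table as well, but with the opposite sign, -0.75 (SE 0.29, adjusted p 0.0512). Whether the change differs between the library types was not tested.

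NFKB2 (ENSG00000077150, chromosome 10, 102394110 to 102402529, plus strand) encodes the precursor of the branch driven by MAP3K14. It had 39.5, 32.3 and 32.0 TPM in the wild type against 25.4, 20.8 and 23.0 TPM in the knockout label. The groups did not overlap and the knockout label was the lower. Its log2 change was -0.56 (SE 0.19), or -0.97 relative to all genes, with a limma adjusted p of 0.0778, and it passed under 4 alternatives, including median ratio scaling (log2 change -0.90, limma adjusted p 0.02003). With the trend of each library with transcript GC content removed, the sign turned, to 0.14 (limma adjusted p 0.710). The authors' deposited table gave NFKB2 0.86 on the log2 scale (SE 0.48, adjusted p 0.223), on a mean of 6.86 normalized counts.

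RELB (ENSG00000104856, chromosome 19, 45001430 to 45038198, plus strand), the partner of the processed NFKB2 product, was scarce. It had 0, 0 and 1 reads in the wild-type libraries and 5, 5 and 1 reads in those labelled knockout, which is 0, 0 and 1.97 TPM against 5.52, 4.51 and 2.13 TPM. RELB passed the filter with 4 libraries, 3 of them labelled knockout. The limma adjusted p was 0.128, and the ratio of summed reads per depth of 5.44 had a 95% exact interval from 0.791 to 234, so a difference was not detectable at this depth. The authors' deposited table gave RELB a mean of 0.408 normalized counts and no adjusted p.

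Of the inhibitor genes, NFKBIE fell and NFKBIA did not pass the test. NFKBIA (ENSG00000100906, chromosome 14, 35401511 to 35404749, minus strand) encodes the main I-kappa-B, which is destroyed on stimulation and remade as a target of NF-kB. NFKBIA had 23.9, 21.8 and 17.7 TPM in the wild type against 28.2, 28.9 and 24.5 TPM in the knockout label, from 5 to 8 and 9 to 25 reads, with the lowest knockout-labelled library just above the highest wild-type library. Its log2 change was 0.32 (SE 0.24; limma adjusted p 0.337), or -0.09 relative to all genes. NFKBIA stood at -0.06 on the log2 scale (SE 0.17) in the authors' deposited table, and the 95% interval computed from that SE was -0.40 to 0.28.

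NFKBIE (ENSG00000146232, chromosome 6, 44258166 to 44265788, minus strand) encodes I-kappa-B epsilon, another inhibitor that retains NF-kB in the cytoplasm. NFKBIE had 32.9, 48.1 and 41.8 TPM in the wild type against 5.19, 7.43 and 5.004 TPM in the knockout label. Every wild-type library was more than 4 times as high as every knockout-labelled library. The reads were 12, 12 and 18 against 4, 7 and 2, although the knockout-labelled libraries were the deeper. Mean NFKBIE fell from 40.9 ± 7.62 (SD, n = 3) in the wild type to 5.66 ± 0.924 TPM (SD, n = 2), which limma put at -2.65 on the log2 scale (SE 0.28, adjusted p 0.00307), or -3.06 relative to all genes, and the ratio of summed reads per depth was 0.153 (95% exact interval 0.0754 to 0.291). The call held under all 16 alternative fits, with log2 changes of -2.98 to -2.02. The sign was the same in the authors' deposited table but the change did not pass, at -0.63 (SE 0.46, adjusted p 0.382) on a mean of 10.7 normalized counts.

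**Figure D2:**
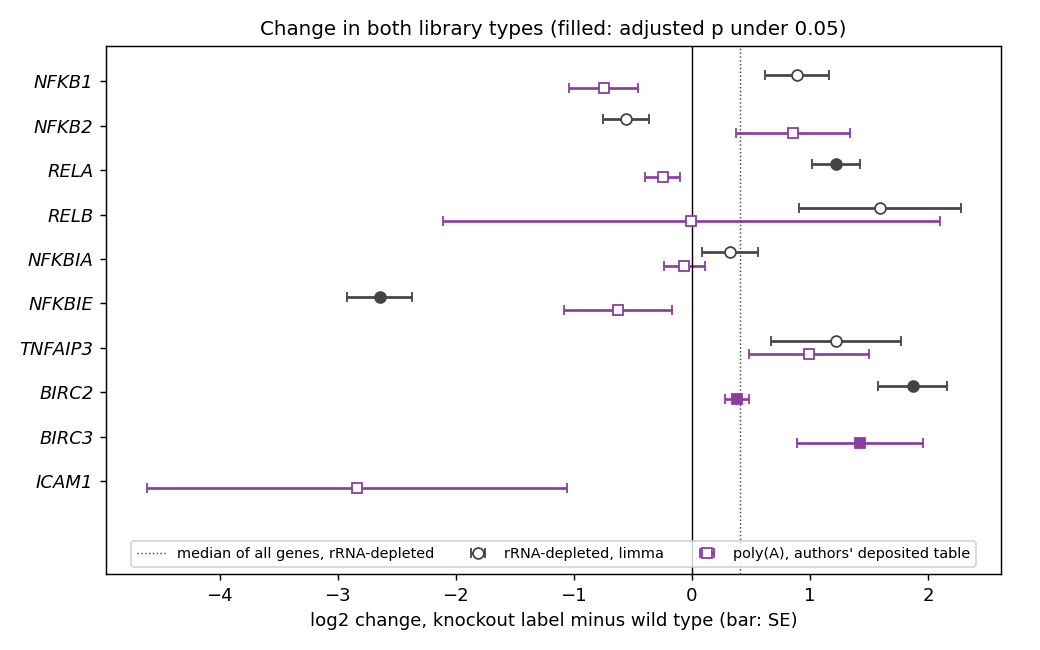
Log2 change between the knockout label and the wild type (horizontal axis, bars give the SE) for each gene, with circles for limma on the rRNA-depleted libraries and squares for the authors' deposited table of the poly(A) libraries; filled symbols passed an adjusted p of 0.05. BIRC2 is the gene filled in both, and NFKB1, NFKB2, RELA, NFKBIA and RELB have opposite signs in the 2 library types, with NFKBIA and RELB near 0 in the poly(A) libraries.

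TNFAIP3 (ENSG00000118503, chromosome 6, 137867188 to 137883312, plus strand) encodes A20, a ubiquitin-editing enzyme that ends receptor signalling to NF-kB. It had 1, 0 and 1 reads in the wild type and 6, 6 and 2 reads in the knockout label, which is 1.40, 0 and 1.19 TPM against 3.98, 3.25 and 2.56 TPM. All knockout-labelled libraries were the higher, yet the limma adjusted p was 0.144 and the ratio of summed reads per depth, 3.46, had a 95% exact interval of 0.795 to 31.4. TNFAIP3 was at 0.99 on the log2 scale (SE 0.51, adjusted p 0.173) in the authors' deposited table. An antisense gene, AL357060.1, overlaps TNFAIP3 over 1046 bases and had 1.73 to 4.39 TPM in the wild type against 0 TPM in the knockout label. At this depth such values rest on few reads, and the difference was not tested. Whether the counting used strand is not given in the sources used here.

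BIRC2 and BIRC3 encode the cellular inhibitor of apoptosis proteins, ubiquitin ligases that promote receptor signalling to NF-kB and keep MAP3K14 low. The genes lie side by side on the plus strand of chromosome 11 in GENCODE 29 (GRCh38), BIRC3 (ENSG00000023445) at 102317450 to 102339403 and BIRC2 (ENSG00000110330) at 102347211 to 102378670, with 7807 bases between them. BIRC2 had 10.9, 9.13 and 9.25 TPM in the wild type against 56.9, 36.3 and 31.3 TPM in the knockout label, from 4 to 7 and 22 to 77 reads. Knockout-labelled library 1 was the highest, and the lowest of that label, at 31.3 TPM, was above the highest wild-type library, at 10.9 TPM. Mean BIRC2 rose from 9.77 ± 1.01 (SD, n = 3) in the wild type to 39.0 ± 10.8 TPM (SD, n = 2), which limma put at 1.87 on the log2 scale (SE 0.29, adjusted p 0.00807), or 1.46 relative to all genes, and a ratio of summed reads per depth of 4.37 (95% exact interval 2.68 to 7.56). The call held under all 16 alternative fits. In the authors' deposited table BIRC2 was higher as well, by 0.38 (SE 0.10) on the log2 scale with an adjusted p of 0.00246.

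BIRC3 did not pass the filter on low values in the rRNA-depleted libraries, where it had 1 read in all of the wild type and 2 reads in all of the knockout label. In the authors' deposited table BIRC3 was higher by 1.43 (SE 0.53) on the log2 scale with an adjusted p of 0.0396, on a mean of 5.70 normalized counts. That call ended when the p-values of the authors' deposited table were adjusted over all genes with a p-value (adjusted p 0.0747). ICAM1 (ENSG00000090339, chromosome 19, 10270835 to 10286615, plus strand), a classic target whose product binds leukocyte integrins, was listed at 0 in all 6 rRNA-depleted libraries, where 3 reads would equal 4.85 to 8.38 TPM in the wild type against 2.22 to 5.23 TPM in the knockout label. AC011511.2, antisense to ICAM1 over 14274 bases, was at 0 as well, and AC011511.5, antisense over 815 bases, had 2.20 and 3.21 TPM in wild-type libraries 1 and 2 and 0 in the others. Those values of AC011511.5 also rest on few reads, and the difference was not tested. ICAM1 had a mean of 0.586 normalized counts and no adjusted p in the authors' deposited table, so few reads were counted for it there. Whether the counting used strand is not given. Low counts of a gene overlapped this far therefore do not settle how much ICAM1 RNA was present.

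The order of the levels differed between the groups. In the wild type, mean TPM ran from NFKBIE (40.9) through NFKB2 (34.6), RELA (24.7), NFKBIA (21.1) and NFKB1 (11.7) to BIRC2 (9.77), with TNFAIP3, RELB, BIRC3 and ICAM1 at 2 reads or fewer in the whole group. The ranges of NFKBIE and NFKB2, of RELA and NFKBIA, and of NFKB1 and BIRC2 overlapped, and those of NFKB2 and RELA and of NFKBIA and NFKB1 did not. In the libraries labelled knockout RELA came first (58.3), then BIRC2 (39.0), NFKBIA (26.5), NFKB2 (23.1), NFKB1 (22.4) and NFKBIE (5.66). There the ranges of RELA and BIRC2 overlapped, as did those of NFKBIA and NFKB2 and of NFKB2 and NFKB1, while BIRC2 lay apart from NFKBIA and NFKBIE lay below all 5.

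Ratios between genes of one library do not depend on a scaling factor common to its genes, although they can depend on GC content. The ratio of NFKB1 to NFKB2 was 0.258, 0.358 and 0.418 in the wild type and 0.780, 1.18 and 0.985 in the knockout label. RELA to NFKBIA gave 1.19, 1.13 and 1.18 in the wild type and 1.85, 2.10 and 2.46 in the knockout label. For NFKBIE to NFKBIA the values were 1.38, 2.21 and 2.36 against 0.184, 0.257 and 0.204. RELA to NFKBIE was 0.866, 0.512 and 0.499 in the wild type, so RELA was the lower, and 10.04, 8.17 and 12.05 in the knockout label. BIRC2 to RELA lay between 0.371 and 0.444 in the wild type and between 0.520 and 1.09 in the knockout label. Removing the GC trend turned the log2 change of BIRC2 to RELA from 0.65 to -0.59 and reduced that of NFKB1 to NFKB2 from 1.45 to 0.87. None of the 5 ratios, as measured, overlapped between the groups. The exact permutation test (two-sided) gave p = 0.2 for each, also after Benjamini-Hochberg adjustment over the 5. This form of the test doubles the smaller tail, and with 3 against 2 samples it can give no lower p.

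**Figure D3:**
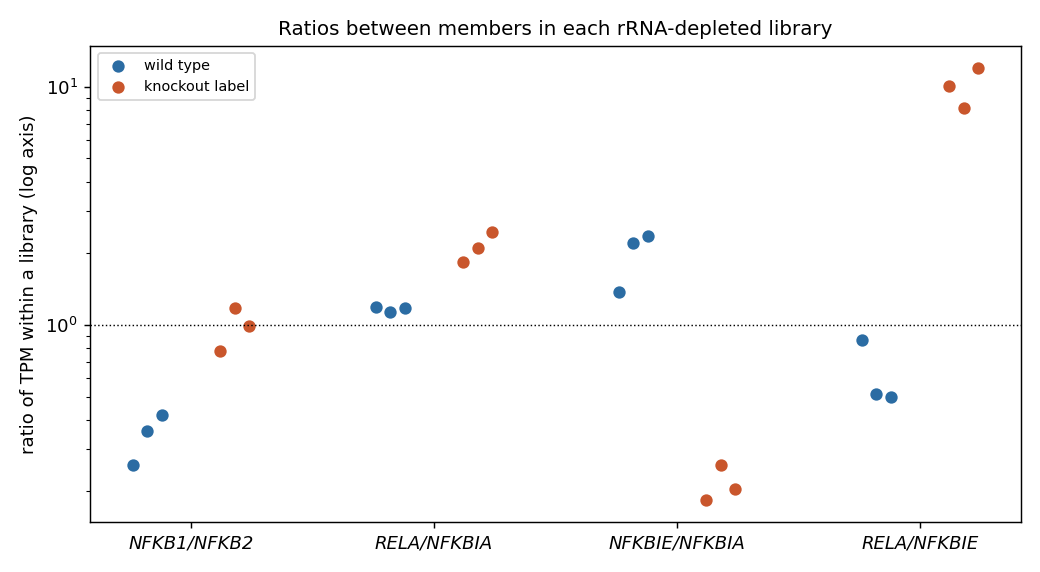
Ratio of TPM between 2 genes of the same rRNA-depleted library (vertical log axis), 1 point per library, for the 3 wild-type and 3 knockout-labelled libraries. RELA to NFKBIE lies between 0.499 and 0.866 in the wild type and between 8.17 and 12.05 in the knockout label.

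Changes in the rRNA-depleted libraries moved with transcript GC content, the median going from 1.24 in the tenth of genes with the lowest GC content to -0.41 in the tenth with the highest. BIRC2, at 38.0% GC, lay 0.63 above the median of its bin, where 29.04% of genes had a higher change. RELA, at 57.1% GC, lay 1.24 above its bin, with 12.3% of genes higher. NFKBIE, at 61.0% GC, lay 2.57 below its bin, with 97.4% of genes higher. NFKB2, at 62.4% GC, was within 0.15 of the median of its bin. After removal of the GC trend of each library, the log2 changes were 1.17 for BIRC2 (limma adjusted p 0.0207), 1.76 for RELA (0.00515) and -2.02 for NFKBIE (0.0108), so these 3 calls held, and NFKB1 passed at 1.005 (0.0431).

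**Figure D4:**
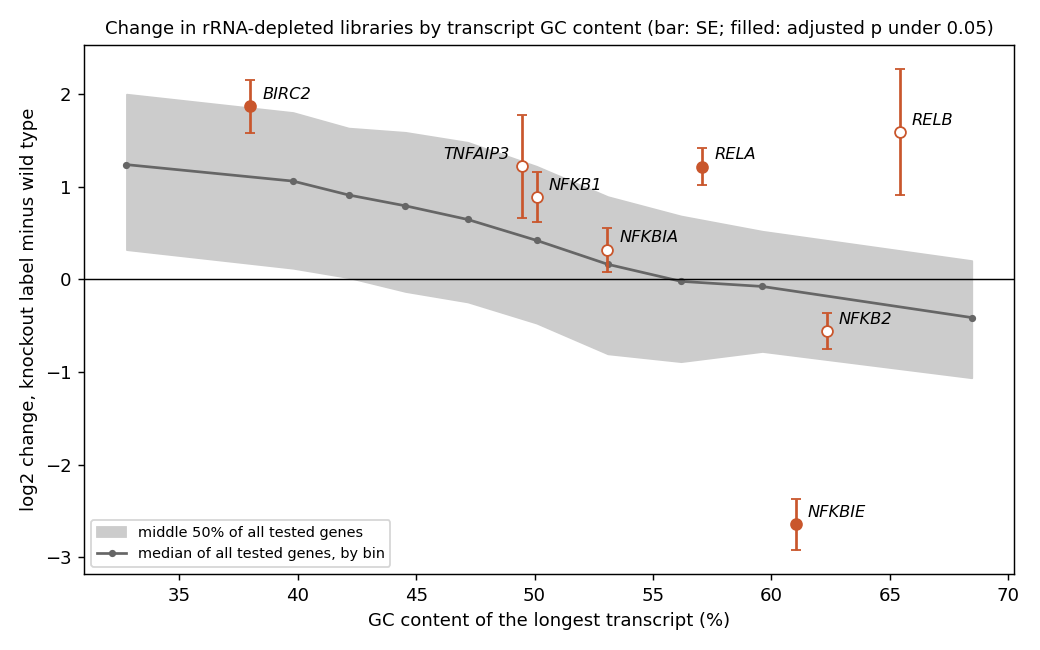
Log2 change in the rRNA-depleted libraries (vertical axis, bars give the SE) against GC content of the longest transcript (horizontal axis, %) for the 8 genes tested; the line and band give the median and the middle 50% of all tested genes in 10 bins, and filled points passed an adjusted p of 0.05. RELA lies above the band, and NFKBIE at -2.65 lies far below it. RELB also lies above it, but was not called and had 1 wild-type read in total.

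Among the lists of other pathway genes, the shares called in the rRNA-depleted libraries were below that of all genes tested for the 5 lists other than the targets. Of 7 other subunits and inhibitors, 1 fell, NFKBIL1, a gene with similarity to the inhibitors, with a log2 change of -1.37 (SE 0.17, adjusted p by limma 0.00435). Their median log2 change was -0.33, where that of all genes was 0.41. NFKBIB, NFKBID, NFKBIL1 and BCL3 had 60.5% to 67.4% GC, and the medians of their GC bins were -0.08 and -0.41. REL, NKRF and NFKBIZ had 38.7% to 46.2% GC, with bin medians of 0.65 to 1.06. The list medians are not adjusted for GC content, and whether they differ from those of genes of like GC content was not tested. NFKBIZ, an inducible nuclear member of the family, was the 1 of 7 called in the authors' deposited table, higher by 1.30 (SE 0.23; adjusted p 5.22e-07). Of 11 kinases and their adaptors, TAB2 rose by 2.96 (SE 0.71; limma adjusted p 0.0284) and MAP3K14, the kinase of the slower branch, fell by 0.93 (SE 0.23; limma adjusted p 0.0295), with a median of 0.08. Higher TAB2 was found in the authors' deposited table too (0.70, SE 0.20), together with CHUK, a catalytic subunit of the kinase complex (0.57, SE 0.10), and these were 2 of 11. MAP3K14 had the opposite sign there and was not called (0.40, SE 0.31; adjusted p 0.428). The medians of the 6 lists in the authors' deposited table ran from 0.03 to 0.47, where that of all genes was 0.02.

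Of the 11 receptors, 7 were tested in the rRNA-depleted libraries, with a median log2 change of 0.58, and LTBR and TLR2 were listed at 0 in all 6. TNFRSF12A, the receptor for the cytokine TWEAK, fell by 1.05 (SE 0.16; limma adjusted p 0.00823), from 619 ± 99.2 (SD, n = 3) to 296 ± 28.7 TPM (SD, n = 2). It was lower in the authors' deposited table too, at -0.97 on the log2 scale (SE 0.11; adjusted p 3.00e-15), where TLR4 was higher (1.57, SE 0.32) and CD40 lower (-0.34, SE 0.13), 3 of 8. Of the receptor adaptors and ubiquitin ligases 4 of 14 were called and all 4 fell, with a median of -0.13: TRADD (-2.50), XIAP (-1.66), TRAF2 (-0.57) and IRAK1 (-0.45). XIAP, of the same protein family as BIRC2, went from 94.0 ± 9.36 (SD, n = 3) to 28.9 ± 2.47 TPM (SD, n = 2), the opposite direction to BIRC2, and had a log2 fold change of 0.12 with an adjusted p of 0.679 in the authors' deposited table. Of these adaptors 3 of 14 were called in the authors' deposited table, MYD88 (0.81) and TRAF6 (0.68) higher and TRAF2 (-0.57) lower.

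Among 9 deubiquitinases and partners of A20, 8 were tested and 2 rose in the rRNA-depleted libraries, with a median log2 change of 0.77. TAX1BP1, an adaptor for A20, rose by 3.21 (SE 0.60; limma adjusted p 0.0136), from 5, 2 and 1 reads to 87, 115 and 30, and had a log2 fold change of 0.06 (adjusted p 0.700) in the authors' deposited table. ITCH, a ubiquitin ligase of the A20 complex, rose by 2.13 (SE 0.27; limma adjusted p 0.00471) but was lower in the authors' deposited table (-0.49, SE 0.12; adjusted p 0.000446), the 1 of 8 called there.

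Of the 28 target genes, SOD2 was not matched by symbol, 9 were listed at 0 in every rRNA-depleted library, and 14 were tested, of which 7 rose and 2 fell, with a median log2 change of 1.46. Those with the largest fitted changes, CCL2, CXCL2, CD83 and CXCL8, and also CXCL3, had 0 reads in all wild-type libraries, so they passed the filter through the knockout label alone and had to differ. Among the 9 tested targets with wild-type reads, 4 were called, 2 in each direction. CCL2, a chemokine for monocytes, had 13, 14 and 8 reads in the knockout label and was at least 1.98-fold higher when 3 reads are allowed in each wild-type library, and for the other 4 that limit was not exceeded. In the authors' deposited table CCL2 stood at -0.03 (SE 0.29, adjusted p 0.964), CD83 at -0.08 (adjusted p 0.844) and CXCL2 at -0.21 (adjusted p 0.939), none of them called. With the 5 tested targets that had no wild-type read set to their bounds, the median was -0.54, so its sign rests on them. LIF (-1.60, SE 0.15) and GADD45B (-1.41, SE 0.15) fell in the rRNA-depleted libraries. LIF stood at -0.06 (SE 0.23, adjusted p 0.902) in the authors' deposited table. The authors' deposited table called 10 of 16 targets, 6 higher and 4 lower. CCL5 (3.27, SE 0.57), CXCL8 (2.57, SE 0.40), IL1B (1.85, SE 0.61) and PLAU (1.82, SE 0.10) were the largest of those 6 in the authors' deposited table. BCL2L1 (-0.87), CFLAR (-0.60), GADD45B (-0.47) and IER3 (-0.41) were lower in the authors' deposited table. IER3 was called in the opposite direction in the rRNA-depleted libraries, at 0.60 on the log2 scale (SE 0.15, adjusted p by limma 0.0299), or 0.19 relative to all genes. PLAU, which encodes the urokinase protease, also rose in the rRNA-depleted libraries (log2 change 1.92, SE 0.23, adjusted p by limma 0.00420), and had 28.8, 21.0 and 32.5 TPM in the wild type against 109, 119.8 and 96.3 TPM in the knockout label.

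**Figure D5:**
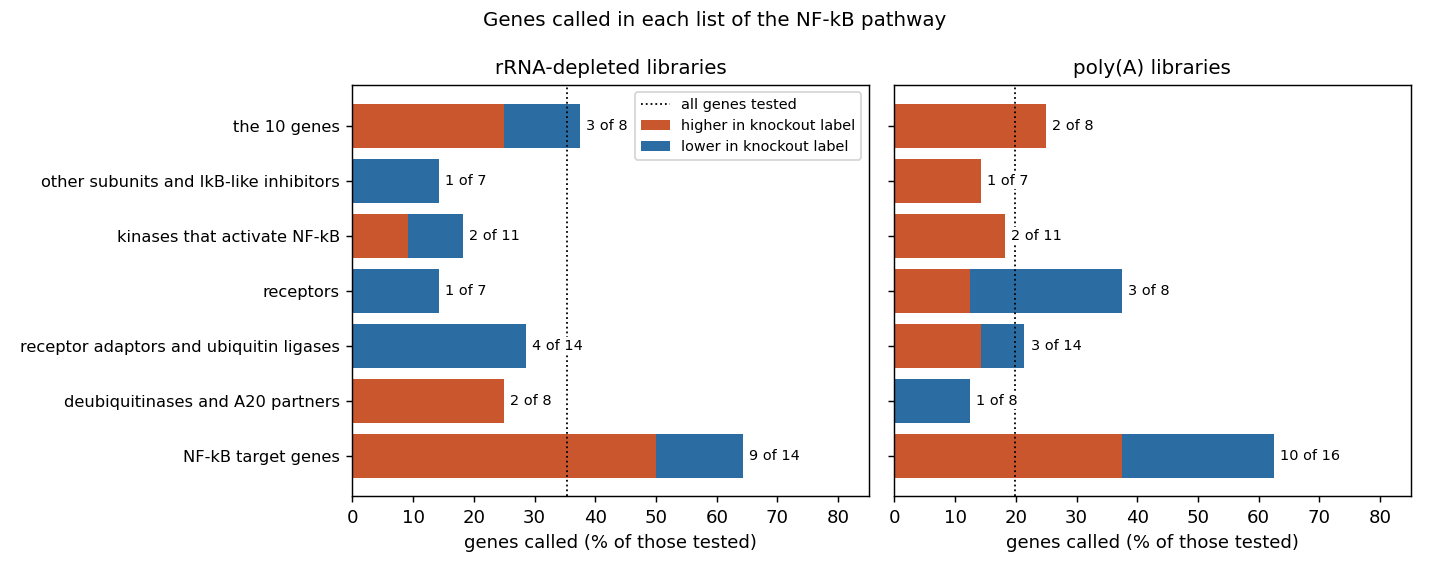
Share of tested genes (horizontal axis, %) called higher or lower in the knockout label for the 10 genes and 6 lists of the pathway, in the rRNA-depleted libraries (left) and in the authors' deposited table of the poly(A) libraries (right); dotted lines give the share over all genes, 35.3% and 19.9%. The 9 of 14 target genes called on the left include 5 with no wild-type read, which had to differ; without them 4 of 9 were called.

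Most markers of the labelled cell type, checked in the same libraries, were absent. Of 10 microglia and macrophage markers, 7 were listed at 0 in all 6 rRNA-depleted libraries (AIF1, CX3CR1, ITGAM, P2RY12, PTPRC, SPI1 and TMEM119), and the list summed to 0 to 6.47 TPM in the wild type against 0.532 to 5.24 TPM in the knockout label. The 9 fibroblast and pericyte markers summed to 10359 to 12829 TPM in the wild type against 1164 to 1309 TPM in the knockout label, most of it COL1A1, with 3 lower, 1 higher and LUM at 0. The log2 change of COL1A1 was -3.70 in these libraries and -0.79 (SE 0.09) in the authors' deposited table. COL1A2 was lower in these libraries (-2.18) but higher in the authors' deposited table (0.30, SE 0.08; adjusted p 0.00290). THY1 was higher in both (1.05 and 0.58). PDGFRB was at -1.08 and, in the authors' deposited table, at -0.05 (adjusted p 0.886). Endothelial markers summed to at most 1.59 TPM, with CDH5 and TEK at 0, and astrocyte and neuron markers to 1.65 to 6.38 TPM in the wild type against 12.7 to 14.3 TPM in the knockout label, with AQP4 and RBFOX3 at 0. Of the latter list, mean SNAP25 went from 0.594 to 9.25 TPM, on 0, 0 and 1 wild-type reads. Mean SLC1A3 was higher too, and those of GFAP and SYP were lower. The part of these differences, and of the difference in depth, in the changes of the NF-kB genes was not tested. In RNA from bulk cultures, fewer cells of a kind and less RNA per cell cannot be told apart.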

How the data were processed

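RNA of wild-type HMC3 cells and of HMC3 cells labelled METTL3 knockout was sequenced in 16 libraries. Trimmomatic, STAR, DESeq2 and the build hg38 are named in the submitters' processing notes, with no role; annotation and strand setting are not given in the sources used here. Per the file headers, the authors deposited for the poly(A) libraries a mean normalized count (a signal over all libraries), a log2 fold change with its SE, its Wald score, and p-values before and after adjustment, which were described and not retested. TPM, as deposited by the authors, is the unit of the rRNA-depleted libraries and sums to the same total in each.

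Genes were matched by symbol, and samples were grouped by title. Gene lengths (union of exons) and GC content came from GENCODE 29, which matched 93.8% of genes. The worth of 1 read was the commonest product of TPM and length, and 90.9% of values above 0 were then whole reads within 0.02. Depth ran from 266157 to 1267171 reads, and intervals and limits of 3 reads cover counting error only. Libraries of a label were compared by chi-square over genes with at least 10 whole reads in the pair. The test was limma 3.58.1 in R 4.3.3 (eBayes with trend) on log2(TPM + 1), which understates the change of low genes, over the 14789 genes that reached 1 TPM in 3 or more libraries, with Benjamini-Hochberg adjustment over all of them at 0.05. Ratios of reads have exact conditional binomial intervals at 95%. Tables used pandas 2.3.3, numpy 2.4.6, scipy 1.17.1 and Python 3.11.15, and figures matplotlib 3.10.9.

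On simulated reads for 14673 genes, 200 genes averaging at least 5 reads were changed by 2 on the log2 scale. Limma recovered 76 of these (38%), all in the right direction. It called 31 others, 30 of them averaging under 5 reads, so calls of such genes are weak. The simulation changed a far smaller share of genes than the 35.3% called in the data, where recovery can differ. Restricted to 10487 genes averaging 5 reads or more, 142 (71%) were recovered and 1 other was called. Of the 10 genes, RELB, TNFAIP3, BIRC3 and ICAM1 average under 5 reads. With none changed it called 0 in either set.

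The genes and lists were chosen with earlier results of these data known. Named genes are the 10 members, METTL3 and, from each list, library type and direction, up to 4 called genes with the largest change whose groups do not overlap where libraries have values. The marker genes, the stricter promoter pattern, the ratios between genes and their GC-corrected changes, the target count without genes lacking wild-type reads, the overlapping antisense genes and the fit on genes averaging at least 5 reads were described or added after seeing the data. A count test planned for the poly(A) libraries was replaced by the authors' values.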

Additional observations from a re-analysis of the deposited data

How the results depend on the processing

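BIRC2 (higher) and NFKBIE (lower) kept their direction and their call under all 16 alternative fits of the rRNA-depleted libraries and at an adjusted p threshold of 0.01. RELA did in 15 of the 16 fits and at that threshold, the exception being the fit without knockout-labelled library 3. The number of genes called, 5220, ran from 1663 to 5185 when 1 library was left out, lowest without knockout-labelled library 3, where a lone averaged sample is assumed to vary like the wild type. At a threshold of 0.01 it was 2242, and 1811 of the 2782 calls in the poly(A) comparison passed it. Reversed signs were those of NFKB2 with the GC trend removed (0.14) and of NFKBIA with median ratio scaling (-0.019), neither called in the main test. The share of calls that were higher, 64.8%, was 48.6% with median ratio scaling, 52.1% with quantile normalization and 52.5% with voom on recovered reads, and the cause was not tested. Same-numbered libraries did not deviate together (correlations 0.02, -0.02 and 0.01), nor did every library correlate best with its own number, so the numbers pair nothing. With the replicate block on 6 separate libraries 6037 genes were called, against 6880 with no replicate block, and NFKB1, NFKB2 and RELB, called without the block, had limma adjusted p-values of 0.0525, 0.0704 and 0.107 with it. RELB, TNFAIP3 and BIRC3 are limited by depth, and ICAM1 had no counted read in the rRNA-depleted libraries.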
